A study of Oryza sativa Indica Group with 16 samples.

Results

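SWEET genes encode small membrane proteins that let sugars pass down their concentration gradient, out of or into a cell or vacuole. The rice family has sucrose carriers (clade III, SWEET11 to SWEET15), mainly hexose carriers (clades I and II) and SWEET16, whose Arabidopsis relatives sit in the vacuole membrane (clade IV). In cereals they are known for handing sucrose to the phloem and to the filling grain, and SWEET11 and SWEET14 also for being switched on by the rice blight bacterium. Members were the genes whose symbol or synonym is SWEET or OsSWEET with a number and an optional letter a or b, and to which the platform annotation gives a probe set that belongs to no other gene. Of 14 genes with such a name, 12 had 15 probe sets of their own among 57258 probe sets on the array, of which 22436 are assigned to 1 gene. SWEET3A and SWEET13 had no such probe set and were not analysed here. SWEET1B is named OsSWEET1b as a synonym. SWEET6A and SWEET6B share 1 gene entry and 1 probe set. SWEET1A, SWEET2B and SWEET14 had 2 probe sets each, called set 1 and set 2 below. The SWEET11 probe set and set 2 of SWEET2B and of SWEET14 have suffixes (s_at or x_at) by which the manufacturer marks probes that can also bind other transcripts.

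Affymetrix rice arrays measured transcripts in seedlings of indica rice, 10 days after germination, in 4 genotypes. CSR27 is the salt-tolerant and MI48 the salt-sensitive parent, and the tolerant and sensitive bulks pool recombinant inbred lines of the cross, in a number not given in the sources used here. Each genotype was sampled in control conditions and after 24 h in 150 mM NaCl, with 2 arrays called biological replicates per group, 8 groups and 16 arrays. The labels name seedlings and no organ, and in such mixed samples fewer cells of a type and less RNA per cell cannot be told apart. Nothing says how the replicates were grown. The p-values therefore weigh a difference only against the spread of arrays within groups, pooled over all groups of a fit.

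The signals have no common scale as deposited: array medians ran from 14.8 to 26.1 on the 8 bulk arrays and from 0.4 to 86.3 on all arrays. All values below were therefore scaled to a median of 18.4 per array, and a change is the difference of log2(signal + 4) between group means. Spearman correlation between arrays was 0.90 to 0.93 among the bulks and 0.64 to 0.77 among 6 parent arrays. Replicate 2 of the CSR27 control and replicate 1 of CSR27 in salt were unrelated to every other array (highest correlation 0.0101 and 0.0083) and are called arrays without rice signal, so CSR27 had 1 usable array per condition. Tests were made with limma over all probe sets that passed a filter on dim signals. The bulks are described from a fit of the 8 bulk arrays, in which 14 of the 15 SWEET probe sets, from 11 genes, were tested.

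Most SWEET transcripts were lower in salt-treated than in control seedlings of both bulks, and SWEET15 was higher. Averaged over the bulks, SWEET11 was 2.76-fold lower, set 1 of SWEET2B 2.44-fold lower, SWEET2A 2.15-fold lower and SWEET1B 2.09-fold lower in salt, while SWEET15 was 1.94-fold higher. The family was chosen for description on these salt responses of the bulks, measured earlier on the same arrays, so they are given as a description and without p-values. Of the 14 probe sets tested, 8 passed the adjusted threshold of 0.05 as lower, where 12.2% of all 32996 tested did, and 1 passed as higher, where 2.63% did. Nothing is read from these counts, because this response was known when the family was chosen. The median change of the 14 was -0.70 on the log2 scale and that of all tested probe sets -0.13, so salt arrays were lower as a whole under this scaling, and 10 of the 14 lay below that general shift.

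Among the sucrose carriers, SWEET11 takes part in loading sucrose into the developing grain, and its recessive allele xa13 gives resistance to bacterial blight. Its signal was 467 and 458 on the tolerant bulk control arrays and 156 and 159 on the salt arrays, and 439 and 382 on the sensitive bulk control arrays and 169 and 139 on the salt arrays. All 4 salt arrays thus lay far below all 4 control arrays, and the order of the groups ran from tolerant control over sensitive control to both salt groups, whose arrays overlapped. The change was -1.53 ± 0.16 (log2, SE, n = 2 and 2) in the tolerant bulk and -1.39 ± 0.16 in the sensitive bulk, the largest fall of the family in the tolerant bulk and the second largest, after set 1 of SWEET2B, in the sensitive bulk. Each SE given for the bulks is the limma SE, from a spread pooled over all bulk groups. It is therefore equal in both bulks and does not show the spread of the groups compared. The log2 SD of SWEET11 ran from 0.019 in tolerant control to 0.20 in sensitive salt.

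SWEET15 is a partner of SWEET11 in grain filling, and its Arabidopsis counterpart is known from senescing leaves and osmotic stress. The SWEET15 signal was 228 and 225 on the tolerant control arrays against 520 and 504 on the salt arrays. In the sensitive bulk it was 197 and 124 in control and 267 and 266 in salt. It was the only member whose 4 salt arrays all lay above its 4 control arrays, with a change of 1.16 ± 0.20 in the tolerant and 0.75 ± 0.20 in the sensitive bulk. Within the same clade SWEET11 and SWEET15 therefore moved in opposite directions, and both directions held under quantile normalization (-1.25 and 1.17 averaged over the bulks).

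SWEET14, a further sucrose carrier and blight target, was dimmer. Its set 2 had signals of 74.0 and 69.6 against 48.7 and 34.2 in the tolerant bulk and of 91.9 and 69.5 against 52.8 and 49.7 in the sensitive bulk. All salt arrays were below all control arrays here too. Set 1 gave an averaged change of -0.72 ± 0.28 and set 2 of -0.68 ± 0.18, and set 2 alone passed the threshold. Both sets derive from the same transcript sequence entry and correlated at Pearson r = 0.77 over the 8 arrays. SWEET12 did not pass the filter, with signals of 0.8 to 14.5 on the bulk arrays, all below the array median of 18.4, and nothing is read from its values.

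**Figure D1:**
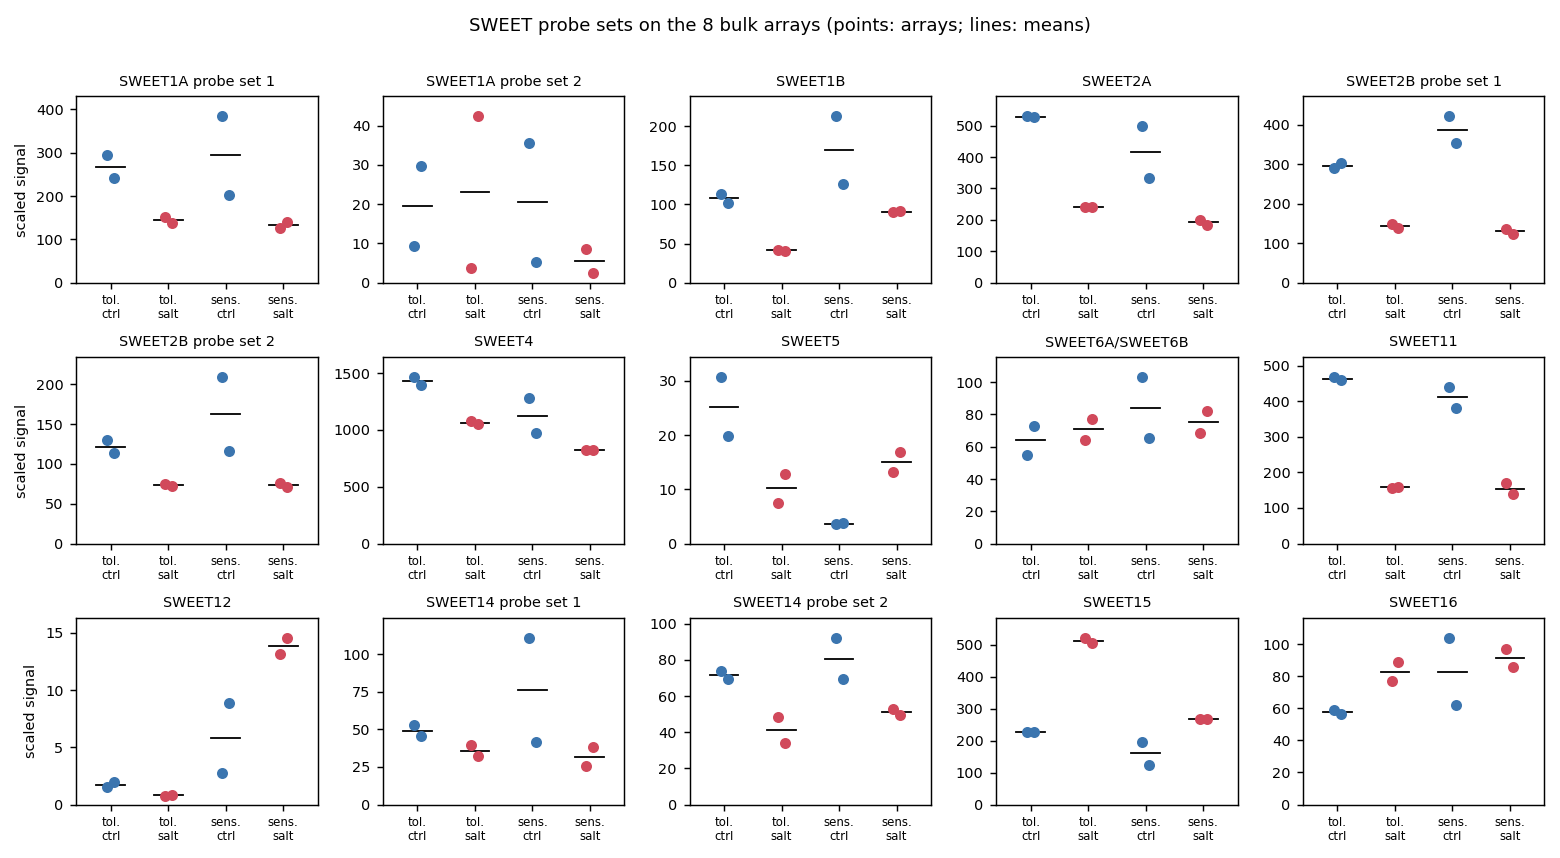
Scaled signal (linear axis from 0) of the 15 SWEET probe sets on the 8 bulk arrays, with 1 point per array, blue for control and red for salt, and a line at each group mean. SWEET11, SWEET2A and set 1 of SWEET2B have all salt arrays well below the control arrays of both bulks, SWEET15 has them above, and SWEET5, SWEET12 and set 2 of SWEET1A have no array above 42.4.

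The clade I genes, whose studied relatives carry mainly glucose, had all salt arrays below the control arrays within each bulk for 5 of 6 probe sets, where 20.7% of all tested did. The 5 include both sets of SWEET2B, and the family was chosen on these responses. SWEET2A fell from 530 and 529 to 241 and 240 in the tolerant bulk and from 499 and 334 to 199.5 and 184 in the sensitive bulk. The changes were close to each other, -1.13 ± 0.19 and -1.08 ± 0.19. SWEET2B, by set 1, had 289 and 303 in tolerant controls against 148 and 138 in salt. In the sensitive bulk its set 1 had 421 and 353 against 137 and 123. The tolerant change was -1.03 ± 0.16 and the sensitive change -1.54 ± 0.16, and the difference between them did not pass the test (0.51 ± 0.23, limma adjusted p = 0.72). Set 2 of SWEET2B followed set 1 across the arrays (r = 0.93, n = 8) with smaller changes of -0.70 ± 0.26 and -1.05 ± 0.26.

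SWEET1B had signals of 114 and 102 in tolerant control seedlings and 41.8 and 41.1 after salt, and of 213 and 126 in sensitive control seedlings and 90.0 and 91.6 after salt. The salt arrays of the sensitive bulk were therefore near the control arrays of the tolerant bulk. The change was -1.30 ± 0.25 in the tolerant and -0.83 ± 0.25 in the sensitive bulk. SWEET1A, by set 1, had 295 and 241 against 152 and 138 in the tolerant bulk, and 384 and 203 against 126 and 141 in the sensitive bulk. Its change was -0.86 ± 0.26 and -1.05 ± 0.26. Set 2 of SWEET1A ran from 2.5 to 42.4 without separating the groups, correlated weakly with set 1 (r = 0.40, n = 8) and had an averaged change of -0.62 ± 0.67.

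In clade II, SWEET4, a hexose carrier needed for grain filling in rice and maize, was the member with the smallest change that passed. Its signal was 1463 and 1394 in tolerant controls and 1079 and 1048 in salt, and 1277 and 974 in sensitive controls and 828 and 827 in salt. The changes of -0.42 ± 0.14 and -0.43 ± 0.14 nearly coincided, and after quantile normalization SWEET4 no longer passed. SWEET6A/SWEET6B ranged from 55.0 to 103 with an averaged change of 0.01 ± 0.19. SWEET5 was dim, from 3.5 to 30.6, and had opposite changes of -1.04 ± 0.55 in the tolerant and 1.31 ± 0.55 in the sensitive bulk, neither of which passed. SWEET16, in clade IV, ranged from 56.3 to 104, with changes of 0.49 ± 0.25 and 0.18 ± 0.25 that did not pass either.

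**Figure D2:**
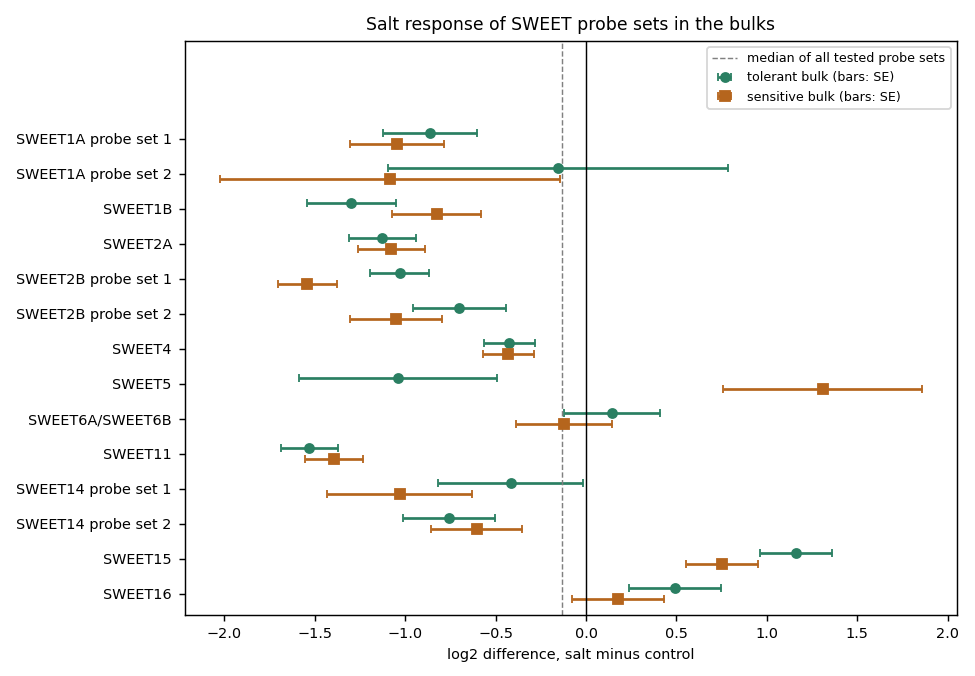
Log2 difference between salt and control (x axis) for the 14 tested SWEET probe sets in the tolerant bulk (green circles) and the sensitive bulk (brown squares), with bars for the SE, n = 2 and 2 arrays. The SE comes from a spread pooled over all bulk groups, so the bars are equal in both bulks. SWEET11 lies at -1.53 and -1.39 and SWEET15 at 1.16 and 0.75, against a median of all tested probe sets of -0.13 (dashed line).

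In the tolerant bulk alone, SWEET11, SWEET1B, SWEET2A and set 1 of SWEET2B passed the threshold as lower (4 of 14, where 4.42% of all tested did) and SWEET15 as higher (1 of 14, against 0.985%). In the sensitive bulk SWEET11, SWEET2A, both sets of SWEET2B and set 1 of SWEET1A passed as lower (5 of 14, against 4.77%) and SWEET15 as higher (1 of 14, against 1.74%). Salt arrays lay below the control arrays within each bulk for 9 of the 14 probe sets, where 20.7% of all tested did, and above them for 1, where 5.09% did. The calls depend on fitting the bulks alone: with the parent arrays in the fit, which varied more, no SWEET probe set passed for any of these responses. Single arrays also set these counts. Leaving out any tolerant bulk array reduced the 5 calls of the tolerant bulk to 1 or 2, and leaving out either sensitive control array raised them to 8. The 6 calls of the sensitive bulk became 2 without either of its salt arrays, 3 without any tolerant bulk array, and 4 and 9 without control replicate 1 and 2. Without control replicate 1 the sensitive changes were 1.08 for SWEET15, -0.59 for set 1 of SWEET1A and -0.64 for set 2 of SWEET2B, and without replicate 2 they were 0.43, -1.50 and -1.46.

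The bulks were also compared directly, in control, in salt and in their responses, on the same arrays as the salt responses on which the family was chosen. No SWEET probe set passed in control (0 of 14, where 1.45% of all tested did, and 5 of 14 at an unadjusted p under 0.05, where 14.1% did), nor in salt (0 of 14, against 1.28%, and 3 at an unadjusted p under 0.05, where 15% did), nor for the difference of the salt responses (0 of 14, against 0.173%, and 2 at an unadjusted p under 0.05, where 6.86% did). In salt, the tolerant bulk exceeded the sensitive by 0.93 ± 0.20 for SWEET15 (limma adjusted p = 0.052), with 520 and 504 against 267 and 266, and passed after quantile normalization (0.80, adjusted p = 0.016). SWEET1B differed by -1.06 ± 0.25 (limma adjusted p = 0.072), with 41.8 and 41.1 against 90.0 and 91.6, and passed after quantile normalization (adjusted p = 0.012). With 1 array left out, the differences in salt ran from 0.91 to 0.95 for SWEET15 and from -1.07 to -1.05 for SWEET1B. For SWEET4 the range was 0.34 to 0.38. The number of members that passed changed with the array left out, and so did the number over all probe sets. In control the values were 0.52 ± 0.20 for SWEET15 (adjusted p = 0.26) and -0.59 ± 0.25 for SWEET1B (adjusted p = 0.31), the same directions as in salt. They were 0.85 and -0.22 without replicate 1 of the sensitive control and 0.20 and -0.96 without replicate 2.

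The salt responses themselves differed by 0.41 ± 0.28 for SWEET15 (tolerant minus sensitive, limma adjusted p = 0.84) and by -0.47 ± 0.35 for SWEET1B (adjusted p = 0.86). For SWEET11 the bulks were 0.17 ± 0.16 apart in control (adjusted p = 0.68), 0.04 ± 0.16 in salt (adjusted p = 0.94) and -0.14 ± 0.23 in the response (adjusted p = 0.95). SWEET5 had the lowest adjusted p in control (1.91 ± 0.55, adjusted p = 0.14) and in the difference of the responses (-2.35 ± 0.78, adjusted p = 0.57). Its signals were 30.6 and 19.9 in tolerant control, 7.6 and 12.9 in tolerant salt, 3.5 and 3.8 in sensitive control and 13.2 and 16.9 in sensitive salt, so 7 of its 8 values were at or below 19.9. SWEET2A (0.37 ± 0.19 in control, adjusted p = 0.41) and SWEET4 (0.36 ± 0.14 in salt, adjusted p = 0.27) were slightly higher in the tolerant bulk without passing.

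Genes of sucrose synthesis, cleavage and uptake and of hexose uptake and phosphorylation were followed beside the SWEET genes. Of 6 lists with 36 probe sets from 32 genes, 31 probe sets were tested, and in the averaged response of the bulks 9 fell and 1 rose, with a median of -0.30, where 12.2% of all tested fell and 2.63% rose. Of 7 invertase probe sets, which split sucrose into glucose and fructose, 3 fell and 0 rose (median -0.57), led by the cytosolic invertase CINV1 (-0.83 ± 0.11). Of 7 sucrose synthase probe sets 3 fell and 1 rose (median -0.30). RSUS1/SUS1 fell by 0.75 ± 0.11 and SUS4 rose by 0.55 ± 0.11. Of 4 sucrose phosphate synthase probe sets 2 fell and 0 rose (median -0.36), with SPS6 at -0.61 ± 0.12.

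None of 4 probe sets of the SUT sucrose transporters, which load sucrose against its gradient, passed (median -0.26, range of the probe sets from -0.52 to 0.01), and neither did the hexose transporter MST3 (-0.34 ± 0.12). Of 8 hexokinase probe sets 1 fell (HXK6/HXK7, -0.70 ± 0.16), and the median was -0.17. The balance depended on the scaling: after quantile normalization 1 invertase rose and 3 fell, 1 sucrose synthase rose and 2 fell, and 1 sucrose phosphate synthase and 1 hexokinase probe set passed in each direction, while CINV1, RSUS1/SUS1, SUS4, SPS6 and HXK6/HXK7 kept their direction and passed. Leaving out 1 array gave 0 to 3 lower sucrose phosphate synthase, 0 to 3 lower hexokinase and 0 to 2 lower SUT probe sets. The 2 sucrose phosphate synthase calls became 0 without replicate 1 of the tolerant control or replicate 2 of the sensitive salt group and 1 without either other replicate of these groups or tolerant salt replicate 2. The hexokinase call was lost without either tolerant control array, tolerant salt replicate 2 or sensitive salt replicate 2, and 3 hexokinase and 2 SUT probe sets passed as lower without sensitive control replicate 2. In the fit of 14 arrays no probe set of these lists passed. In the comparisons between the bulks none of the 31 passed, in control (1.45% of all tested did), in salt (1.28%) or for the difference of the responses (0.173%). As given above, all tested probe sets had a median of -0.13. The SWEET genes were chosen on this response and these lists were not, so their sizes are not compared.

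**Figure D3:**
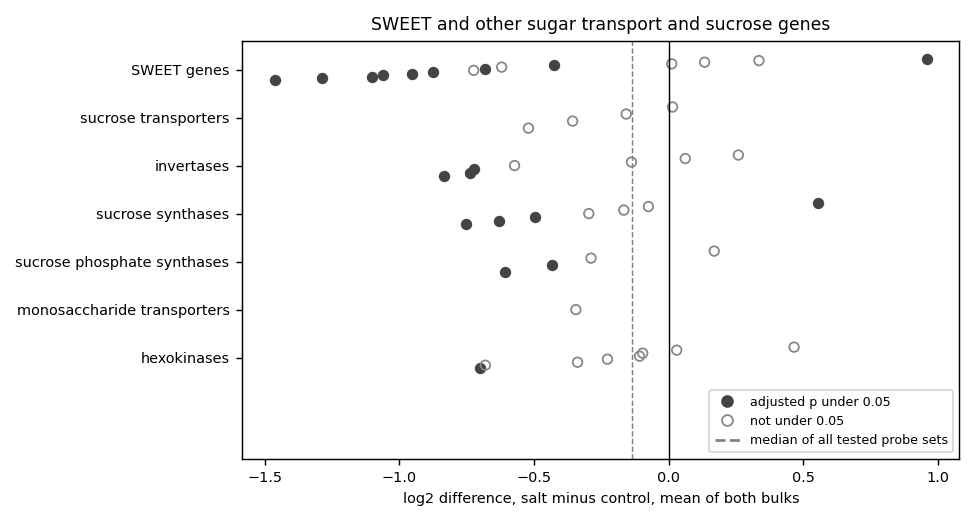
Averaged log2 difference between salt and control in the bulks (x axis) for each tested probe set of the SWEET genes and of 6 lists of sucrose and hexose genes (rows), filled where the adjusted p was under 0.05. CINV1 (-0.83) is the lowest and SUS4 (0.55) the highest probe set of the 6 lists. The SWEET genes, chosen on this response, are drawn for reference.

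Genes with the most similar profile over the 8 bulk arrays were taken from 2781 probe sets of 2254 named genes, by Pearson correlation of log2 values. The arrays form 4 groups that share the salt contrast, so these correlations describe these arrays only. SWEET11 was closest to NH2 (r = 0.99), CPK1 (0.99), FNR (0.98), M-PTH (0.98) and the cytokinin oxidase CKX4 (0.98), and most opposite to the homeobox gene HOX24 (-0.99), PDHE1-A (-0.98) and OsC3H35 (-0.98). SWEET15 was closest to the metallothionein MT1B (0.98), BGLU30 (0.97), OSK24 (0.97), the chlorophyll breakdown gene SGR (0.97) and HPT1 (0.96), and most opposite to LFNR1 (-0.99), the chlorophyll synthesis gene CHLH (-0.99) and DSM3 (-0.98). SWEET1B ran with PURA2 (0.99), the cell wall invertase CIN4 (0.99), FBPase (0.99), CRSH2 (0.98) and E37 (0.98), and against HSP81-3 (-0.98), JAZ13 (-0.97) and SGR (-0.96). SGR thus stood at opposite ends of the SWEET15 and SWEET1B lists.

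SWEET2A was nearest to GER8 (1.00), H2B.10 (0.99), PDIL2-3 (0.99), CPD2 (0.99) and VDAC2 (0.99), and most opposite to GSA (-0.98), bip130 (-0.97) and CESA3 (-0.95). Set 1 of SWEET2B was nearest to the glutamine synthetase GLN1-2 (0.99), RMSOD1 (0.99), CYCA1-4 (0.99), NAAT1 (0.99) and PUB4 (0.98), and most opposite to HSF01, the dehydrin RAB21 and PM1 (each -0.99). Its set 2 was nearest to GLK1 (0.99), CAD3 (0.99), UPD2 (0.98), OsNTRA (0.98) and RPS26 (0.98), and most opposite to HPT1 (-0.96), GRXC7 (-0.95) and PM1 (-0.93). Both sets of SWEET2B therefore had PM1 among their most opposite genes and no nearest gene in common. Set 1 of SWEET1A was nearest to EXPB6 (0.99), PYL11 (0.98), HO1 (0.98), GLUA-2 (0.98) and STLP2 (0.98), and most opposite to GSA (-0.95), GRXC7 (-0.94) and HSF01 (-0.93). SWEET4 was nearest to RPN-II (0.99), COI2 (0.99), PRP19 (0.99), CYP734A6 (0.99) and FH3 (0.98), and most opposite to LAC24 (-0.95), FTSH6 (-0.92) and IRL2 (-0.91). Set 2 of SWEET14 was nearest to ABCG42 (0.98), HPT1 (0.97), COPT1 (0.97), FDRMADS8 (0.97) and CIPK8 (0.97), and most opposite to RHF (-0.96), VP1 (-0.95) and another probe set of HPT1 (-0.94). That opposite HPT1 probe set is the one most opposite to set 2 of SWEET2B. The HPT1 probe set near SWEET15 is a different one again, so the name HPT1 does not stand for a single profile here.

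Markers of seed, leaf and root tissue were set beside these results. The summed signal of 21 seed probe sets was 6525 and 7354 in tolerant control, 1166 and 1147 in tolerant salt, 795 and 920 in sensitive control and 2135 and 1963 in sensitive salt, and none of them was at 0. Among them 1 GBSS1 probe set alone had 3825 and 4791, 576 and 586, 232.5 and 415.5, and 1319 and 1274, in the same order. By group mean, 4 of the 21 were below the array median in tolerant control, 11 in tolerant salt, 14 in sensitive control and 6 in sensitive salt. Of 19 tested, 8 fell and 0 rose in the tolerant bulk (4.42% of all tested fell), and 5 rose and 0 fell in the sensitive bulk (1.74% of all tested rose). Between the control groups 8 of the 19 were higher in the tolerant bulk, by 1.94 to 5.83 on the log2 scale, where 1.45% of all tested differed. They came from GBSS1, GLUA-2, GLUB-5, PROLM25 and RA14. In salt 1 GBSS1 probe set was lower in the tolerant bulk, where 1.28% of all tested differed. In the response 6 differed, where 0.173% of all tested did. Of all tested probe sets 12.2% fell in the averaged response. In the averaged response 5 fell, with GLUB-5 at -1.06 ± 0.26, and 2 after quantile normalization, 1 to 6 with 1 array left out and 0 in the fit of 14 arrays. It was 1 without either tolerant control array or tolerant salt replicate 1, 2 without tolerant salt replicate 2 and 3 without either sensitive salt array. Between the control groups the seed list had a median difference of 1.96. The 14 SWEET probe sets ran there from -0.59 (SWEET1B) to 1.91 (SWEET5), with a median of -0.11 and 0.17 for SWEET11. Of these 14, 6 were above 0 and 8 below. The GLUA-2 probe set among the nearest genes of SWEET1A had changes of -0.49 ± 0.22 in the tolerant and -0.59 ± 0.22 in the sensitive bulk, neither past the threshold. The leaf photosynthesis markers summed to 48960 and 68494 against 43080 and 45808 in the tolerant bulk and to 40850 and 53745 against 56770 and 60398 in the sensitive bulk, and no leaf or root marker was at 0. Of 12 leaf probe sets 5 fell in the tolerant bulk (median -0.44), where 4.42% of all tested fell. In the sensitive bulk 0 passed in either direction (median 0.29). In the averaged response 4 of the 12 fell (PSAH, -0.59 ± 0.09), where 12.2% of all tested fell, 2 after quantile normalization and 0 in the fit of 14 arrays. That count was 1 without either sensitive salt array, tolerant control replicate 2 or tolerant salt replicate 1, and 2 without tolerant salt replicate 2. In the comparison of the bulks in salt 1 of the 12 leaf probe sets was lower in the tolerant bulk, where 1.28% of all tested differed. It was of the Rubisco activase gene rca. Of 5 root probe sets 1 fell in the averaged response, the silicon channel Lsi1 (-0.60 ± 0.12), where 12.2% of all tested fell. The summed root signal of 7 probe sets was 1096 and 1137 against 798 and 805 in the tolerant and 820 and 699 against 641 and 682 in the sensitive bulk. The part of these markers in the SWEET values was not tested.

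In the sensitive parent MI48 most SWEET signals were higher in salt than in control, unlike in the bulks, but none passed the test on its 4 arrays (limma, 0 of 12, where 0% of 31067 tested did, and 8 of 12 at an unadjusted p under 0.05, where 23.8% did). SWEET15 had 38.7 and 167 in control and 770 and 979 in salt (3.35 ± 0.74, adjusted p = 0.14), the same direction as in both bulks. SWEET4 had 532 and 582 against 6928 and 2414 (2.87 ± 0.66, adjusted p = 0.14), and SWEET2A 124 and 112 against 436 and 835 (2.32 ± 0.55, adjusted p = 0.14). Both were thus higher in salt in MI48 and lower in salt in the bulks. Set 1 of SWEET2B had 22.3 and 11.03 against 130 and 181 (2.99 ± 0.66, adjusted p = 0.14), and set 2 43.6 and 6.1 against 78.5 and 176 (2.47 ± 0.93, adjusted p = 0.18). SWEET1B had 125 and 2.5 against 317 and 357 (3.56 ± 1.32, adjusted p = 0.18), so its control arrays disagreed widely. In a fit of all 14 arrays with rice signal 8 members passed for MI48, where 26.7% of 42300 probe sets did. That fit pools the spread with that of the bulk arrays, which varied less than the parent arrays, so nothing is read from this count.

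SWEET6A/SWEET6B had 52.3 and 33.1 in MI48 control against 138 and 292 in salt (2.16 ± 0.64, limma adjusted p = 0.15). SWEET16 had 11.6 and 30.6 against 71.1 and 355 (2.82 ± 0.92, adjusted p = 0.16). SWEET11 did not separate the groups, with 96.8 and 13.5 against 51.6 and 7.6 (-0.73 ± 1.17, adjusted p = 0.75), nor did set 1 of SWEET1A with 581 and 367 against 954 and 421 (0.46 ± 0.61, adjusted p = 0.69). Salt arrays lay above the control arrays for 9 of the 12 probe sets, where 45.5% of all tested did, and below for 0, where 9.35% did. The median change of all tested probe sets was 0.75, so MI48 salt arrays were higher as a whole under this scaling, and 9 of the 12 lay above it. After quantile normalization, which removes that shift, SWEET15 was at 2.26, set 1 of SWEET2B at 2.55, SWEET4 at 1.47 and SWEET2A at 1.10, again without passing.

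The MI48 arrays also differed in tissue markers. The summed signal of 7 root probe sets was 1248 and 3783 in MI48 control and 353 and 165 in MI48 salt, and 5 of the 7 were below the array median in salt and 0 in control, none of them at 0. Lsi1, a silicon channel of root cells, had a difference of -3.33 ± 0.59 and Lsi2 of -4.13 ± 1.00, neither past the threshold. Leaf markers summed to 22479 and 28635 in control and 30877 and 123546 in salt, and seed markers to 273 and 295 in control and 1443 and 315 in salt. A single GBSS1 probe set gave 870 of the 1443. The root markers had no such gap in CSR27, with 2113 in control and 1884 in salt. The part of root and leaf content in the MI48 values was not tested.

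**Figure D4:**
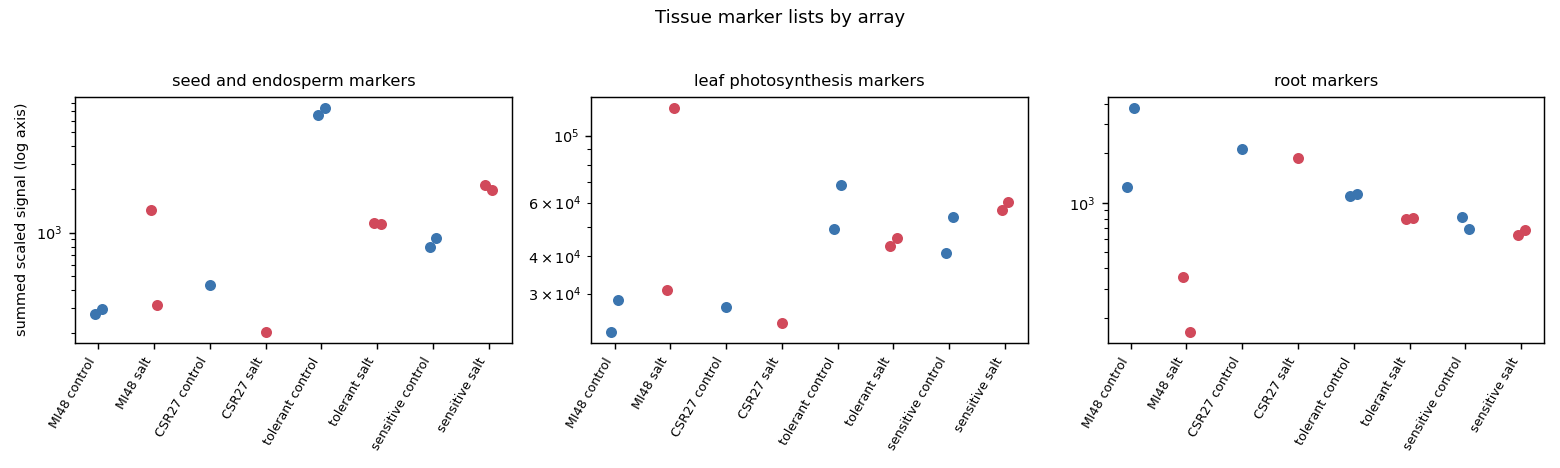
Summed scaled signal (log axis) of the seed, leaf and root marker lists on the 14 arrays with rice signal, with 1 point per array, blue for control and red for salt. The MI48 salt arrays have the lowest root sums (353 and 165), and the tolerant bulk control arrays the highest seed sums (6525 and 7354).

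CSR27, with 1 usable array per condition, allowed no test. SWEET15 had a signal of 30 in control and 108 in salt, and SWEET1B 102 in control and 42.5 in salt, the directions seen in the bulks. SWEET2A had 215 and 202, set 1 of SWEET1A 618 and 447, and sets 1 and 2 of SWEET2B 28.1 and 17.2 and 27.1 and 4.6, also lower in salt as in the bulks. SWEET11 had 64.8 and 82.7, SWEET4 524 and 565, and sets 1 and 2 of SWEET14 2.9 and 12.6 and 16.45 and 36.8. These were higher in salt, against the direction of the bulks. These differences have no replicate behind them. SWEET15 was thus higher in salt in all 4 genotypes, with the array groups apart in the 3 that had replicates. Salt arrays lay above control arrays within each bulk for 5.09% of all tested probe sets, and in MI48 for 45.5%. The bulk values are those on which the family was chosen. SWEET16 also had higher salt means in all 4 genotypes (15.5 and 35.6 in CSR27), with overlapping arrays in the sensitive bulk. SWEET11 was at 7.6 to 96.8 on the 6 parent arrays and at 139 to 467 on the bulk arrays. Before scaling, the medians of these parent arrays were 1.5 to 4.6 and that of MI48 salt replicate 1 was 86.3, so levels between parents and bulks are set side by side only.

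**Figure D5:**
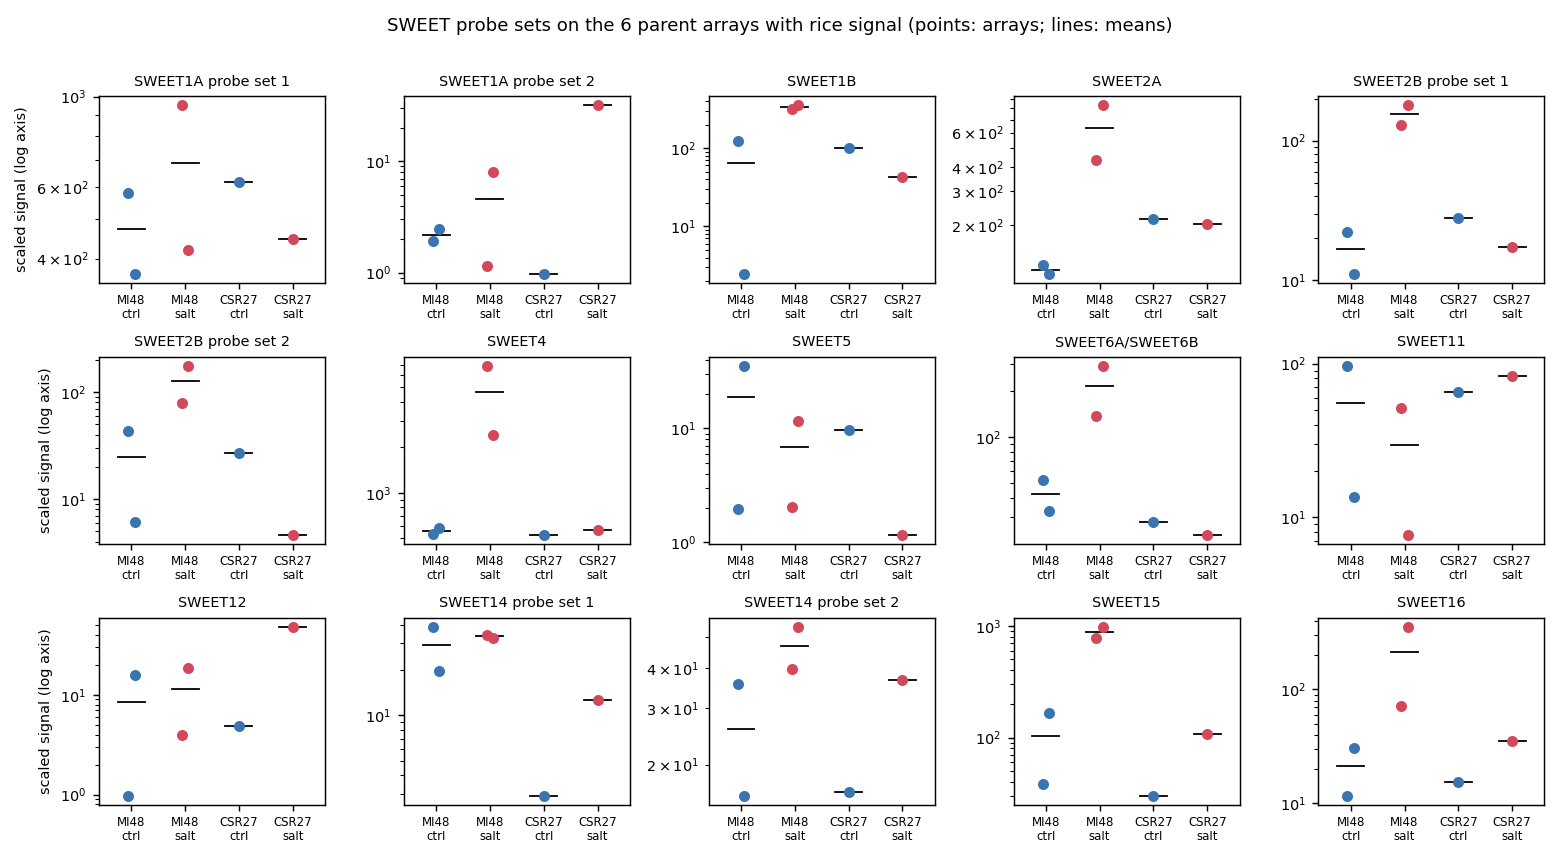
Scaled signal (log axis, with its own range in each panel) of the 15 SWEET probe sets on the 6 parent arrays with rice signal, with 1 point per array, blue for control and red for salt, and a line at each group mean. SWEET15, SWEET2A, SWEET4 and both sets of SWEET2B have the MI48 salt arrays above the MI48 control arrays, and SWEET11 does not separate them.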

How the data were processed

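The authors deposited linear intensity values per probe set. GCOS 1.2 is the tool that the submitters' processing notes list, and its settings are not stated there. The table holds no detection calls. Without 123 control probe sets, each array was scaled to the mean log2 median of the bulk arrays. Values were analysed as log2(signal + pseudocount), with a pseudocount of 4 (25th percentile of the bulk arrays), so changes of dim probe sets are understated. Probe sets at or above the median of the arrays fitted on at least 2 of them were tested. Differences were fitted with limma 3.58.1 in R 4.3.3 (group means, eBayes with trend, two-sided, Benjamini-Hochberg over all tested), for the 8 bulk arrays and the 4 MI48 arrays separately. The fit was tested on simulated data. Names come from the platform annotation and synonyms in a gene table of assembly ASM3414082v1, and all 17905 gene IDs matched. Named were all SWEET probe sets, for each SWEET probe set that passed in a bulk comparison the 5 nearest and 3 most opposite genes, and from each list the largest passing change in each direction and every probe set passing between bulks. The members, lists, tests and the choice of arrays were made with earlier results of these data known. The alternatives tried were a block for the replicate number, quantile normalization, a pseudocount multiplied by 0.25, testing without the filter, other sets of arrays and each array left out. The replicate numbers did not pair arrays: differences between replicates correlated at -0.0063 to 0.083 over 15 pairs of groups, none over 0.1.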

Additional observations from a re-analysis of the deposited data

Results flagged for a closer look

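For 6 of the 12 SWEET probe sets tested in both fits, both MI48 salt arrays lay above both MI48 control arrays. In each bulk their salt arrays lay below the control arrays. Of all 26804 probe sets tested in both fits, 10.9% had this pattern. Its bulk part is the response on which the family was chosen, so nothing is read from the count. The MI48 changes were 3.56 for SWEET1B, 2.32 for SWEET2A, 2.99 and 2.47 for sets 1 and 2 of SWEET2B, 2.87 for SWEET4 and 0.84 for set 2 of SWEET14 (log2). The bulk changes averaged -1.06, -1.10, -1.29, -0.88, -0.43 and -0.68. The difference between MI48 and the bulks was not tested, and 0.84 for SWEET14 is close to the median of all tested probe sets in MI48, 0.75. Root marker sums were lower in MI48 salt than in MI48 control, and their part was not tested.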

How the results depend on the processing

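Counts are probe sets with an adjusted p under 0.05, and the cause of each shift was not tested beyond the setting itself. SWEET counts of 9 (average of the bulks), 5 (tolerant) and 6 (sensitive) became 0, 0 and 0 with the 14 arrays with rice signal and 0, 0 and 0 with all 16 arrays. With only the arrays compared, the tolerant count was 8, the sensitive 2 and the bulk difference in salt 2, and without a filter the sensitive count was 3. The bulk difference in salt had 0 SWEET calls, 2 after quantile normalization and 1 with the replicate block (SWEET15, adjusted p = 0.042), and MI48 had 8 in the 14 arrays. The replicate block moved no other SWEET count by over 1.5 times. For all probe sets, the counts were 4907 (average), 1785 (tolerant), 2147 (sensitive), 480 (bulks in control), 423 (bulks in salt), 57 (difference of responses) and 0 (MI48). With 14 arrays they were 25, 3, 2, 1, 0, 0 and 11295, and with 16 arrays 1, 0, 0, 0, 0, 0 and 176. Without a filter the sensitive count was 1364, the control 298, the salt 208 and the response difference 36. With only the arrays compared the tolerant count was 4248, the sensitive 343, the control 123 and the salt 1700.

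Leaving out 1 array gave SWEET counts of 6 to 10 (average), 1 to 8 (tolerant), 2 to 9 (sensitive), 0 to 3 (control), 0 to 3 (salt), 0 to 0 (response difference) and 0 to 0 (MI48), and counts over all probe sets of 2345 to 9322, 379 to 4467, 360 to 7263, 109 to 3148, 0 to 2435, 25 to 282 and 0 to 0. Where 1 array stayed in a group, its spread was taken from the other groups. Quantile normalization changed the balance of higher and lower calls from 867 and 4040 to 1835 and 2118 (average), from 325 and 1460 to 745 and 898 (tolerant), from 573 and 1574 to 1089 and 1046 (sensitive), from 391 and 89 to 368 and 352 (control) and from 237 and 186 to 349 and 572 (salt), 921 in all. Signs turned for SWEET11 in salt between the bulks (-0.078 after quantile normalization, -0.10 to 0.18 with 1 array left out), SWEET11 in the response difference (-0.27 to 0.0027), set 1 of SWEET1A in MI48 (-0.86 after quantile normalization, -0.13 to 1.04) and SWEET11 in MI48 (-1.99 to 0.41). With 1 array left out they also turned for the averaged change of set 2 of SWEET1A (-1.26 to 0.021) and of SWEET6A/SWEET6B (-0.15 to 0.17) and for SWEET16 in the sensitive bulk (-0.18 to 0.53). Few arrays per group limit the precision.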
